A study of Saccharomyces cerevisiae and Saccharomyces cerevisiae S288C with 30 samples.

Results

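Alternative 3′ and 5′ splice site events were introns that joined an annotated splice site of a budding yeast gene to a second, unannotated site on the other side of the intron. The deposited splicing table held 405 events, and those marked A3SS (alternative 3′ splice site) or A5SS (alternative 5′ splice site) were taken, leaving out APE2 and VMA9. This gave 26 events, 19 A3SS and 7 A5SS, in 21 genes. Each was set beside the annotated intron of the same table that shares its other splice site, which gave 21 annotated partners. The competing sites lay between 3 and 541 nt apart, with a median of 18.5 nt.

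Splicing of a pre-mRNA starts when the 5′ splice site and the branch point are recognised, and the exons are joined after a 3′ splice site is chosen downstream of the branch point. Most yeast genes have no intron, and ribosomal protein genes make up a large share of those that do. A shift of a splice site by a number of bases that is not a multiple of 3 changes the reading frame, and mRNAs with early stop codons can be removed by nonsense-mediated decay, which needs Upf1. The excised intron is a lariat, opened by the debranching enzyme Dbr1.

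Splicing was measured in 26 RNA-seq libraries, 13 groups with 2 biological replicates each. The 6 TruSeq libraries, marked poly(A) in the table, were WT and the single mutants dbr1_null and upf1_null, labelled by genotype without a strain. The 20 Ribo-Zero libraries were the S288c groups dbr1, -rap and +rap, the SK1 group sk1, and a sporulation course of SK1 sampled at 0, 3, 6, 7.5, 8.5 and 12 h. The labels give no dose or duration for +rap, no treatment for dbr1 or sk1, and no control of their own for those 2 groups. Their reference here was -rap, from which an effect of the mutation or strain and an effect of separate culture cannot be told apart. The kits were never put in 1 test.

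The deposited value is PSI, a fraction with 2 decimals. In WT, all 25 events with values had a PSI above that of the annotated partner, and 17 of the 25 were at 0.99 or more. If PSI were the share of transcripts using the alternative site, this same order makes its sum with 1 minus the partner's PSI pass 1. In -rap the order held in 24 of 25 events. PSI was therefore read as for introns, as the share of transcripts not spliced at that pair of sites, so that a lower PSI means a larger share spliced at that pair. No source used here gives the denominator or the reads behind a value, which leaves the depth per event unknown and counting intervals out of reach. Between 384 and 394 of the 405 events had a value in a TruSeq library and between 231 and 374 in a Ribo-Zero library. Of the 26 alternative events, 25 had both replicate values in most groups, against 17 at 7.5 h, 15 at 8.5 h and 21 at 12 h. Ribosomal protein genes mostly exist as near-identical pairs, and reads from such exons can be split between the copies. Every mean ± SD below has n = 2.

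The events fell into 15 in 11 ribosomal protein genes and 11 in 10 other genes. The alternative 3′ site lay inside the annotated intron in 6 A3SS events and within the downstream exon or beyond in 13. The alternative 5′ site lay inside the annotated intron in 3 A5SS events and upstream of it in 4. The distance was a multiple of 3 in 7 events and not in 19. The annotated partners had a median length of 330 nt, against 143 nt for all annotated introns. Coordinates are on sacCer3, and no genome sequence was used here, so that splice site sequences are not shown.

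In 14 events the competing sites were at most 20 nt apart. ECM33, which encodes a cell wall protein, had the shortest distance, 3 nt (chromosome II, 393181 to 393507, against the annotated intron ending at 393510), and both sites keep 1 frame. RPL23A, of the large ribosomal subunit, had a site 4 nt past the annotated one (chromosome II, minus strand, 60190 to 60697, annotated start 60194). RPL30, whose protein binds its own transcript and inhibits its splicing, had a 5′ site 4 nt inside the intron (chromosome VII, 439098 to 439323, annotated start 439094). TAN1, needed for acetylation of a tRNA cytidine, had a pair of 3′ sites, 6 nt before and 7 nt after the annotated one (chromosome VII, 62132 to 62183 and 62132 to 62196, annotated end 62189). The site of AMA1, a meiotic activator of the anaphase-promoting complex, lay 7 nt upstream of the annotated 5′ site (chromosome VII, 946321 to 946420, annotated start 946328). DID4, a subunit of the ESCRT-III membrane remodelling complex, had a site 8 nt past the annotated one, TDA5 9 nt, and RPS0B, of the small ribosomal subunit, 10 nt. The small subunit genes RPS19B and RPS16A had sites 11 and 12 nt past the annotated one (RPS16A on chromosome XIII, 551952 to 552507, annotated end 552495). RPL7A had a site 17 nt past and RPS23B 17 nt before the annotated one (RPS23B on chromosome XVI, 795030 to 795377, annotated end 795394). VPS75, a histone chaperone, had its site 20 nt before the annotated one (chromosome XIV, 185492 to 185566, annotated end 185586).

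The other 12 events used sites farther away. GPI15, an enzyme subunit of glycolipid anchor synthesis, had a 5′ site 36 nt upstream, and RPL23A a further 3′ site at 44 nt. NCE101, linked to protein export outside the classical pathway, had a 3′ site 51 nt before the annotated one. LSM2, a subunit of the Lsm ring of the U6 snRNP and of mRNA decay, had a 5′ site 56 nt upstream that lay 2 bases before the annotated gene start and was shared with an unannotated intron. RPS0B had further sites at 95 and 146 nt, RPL19B 5′ sites at 130 and 176 nt inside its intron, and RPL16B a 3′ site at 202 nt. RPS7A had a site 343 nt before the annotated 3′ site, which leaves an intron of 58 nt in place of 401 nt (chromosome XV, 505938 to 505995, annotated end 506338). RPS16B had the longest event, 960 nt, with a 3′ site 528 nt away and 120 bases past the gene span (chromosome IV, minus strand, 306806 to 307765, annotated start 307334). EFM5, a methyltransferase of translation elongation factor 1A, had the most distant site, a 5′ site 541 nt upstream (chromosome VII, minus strand, 497366 to 497999, annotated intron to 497458). Whether that site is the 5′ site of another annotated intron of EFM5 was not checked.

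In WT, the alternative sites with most splicing all lay close to the annotated site. RPL30 had the lowest PSI, 0.63 and 0.64 in the 2 libraries, beside 0.55 and 0.46 for its annotated intron. RPS16A followed with 0.89 and 0.90, then RPS23B with 0.90 in both libraries and DID4 with a mean of 0.93. Only these 4 events were under 0.95. ECM33 had 0.95 in both libraries, VPS75 0.93 and 0.99, and the 7 nt event of TAN1 0.98 and 0.96. Those 7 events were all that lay under 0.98 in WT, and each was at most 20 nt from its annotated site. Of the 12 events over 20 nt, 11 had a mean of 0.99 or more, and the lowest was the RPS0B event at 146 nt, at 0.98 in both libraries.

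The median PSI in WT was 0.97 over 13 events of at most 20 nt, with a range from 0.635 to 1, and 1 over 12 events farther away, with a range from 0.98 to 1. A short distance did not come with a low PSI in every event, since the 4 nt event of RPL23A and the 10 nt event of RPS0B were at 1 in both WT libraries. The Spearman rank correlation between distance and WT PSI was 0.561 over 25 events, which share genes and partners and are not replicates. It was 0.390 over the 19 A3SS events alone, and 0.566 in -rap. In -rap, 3 of the 12 events over 20 nt were also under 0.98, among them NCE101 with 0.95 and 0.93. The range of the distant events in -rap, 0.94 to 1, therefore lay inside that of the close ones, 0.685 to 1.

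**Figure D1:**
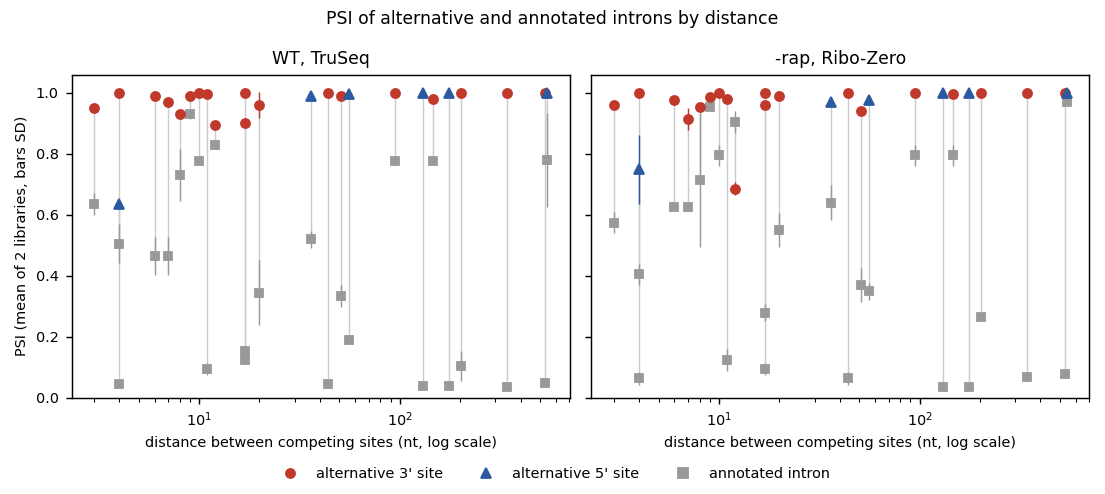
PSI (vertical axis, fraction) against the distance in nt between the competing splice sites (horizontal log axis) in WT and -rap; circles are alternative 3′ sites, triangles alternative 5′ sites, squares the annotated partners, bars the SD of 2 libraries, and grey lines join the members of a pair. In WT the events over 20 nt sit between 0.98 and 1, while those of at most 20 nt reach down to 0.635.

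The annotated partners of close sites had a higher median PSI in WT than those of distant ones, but the ranges overlapped. The median was 0.485 over 12 introns (0.045 to 0.93), against 0.1475 over 10 introns with a site farther away (0.035 to 0.78). RPL23A and RPS0B were in both sets. In -rap the medians were 0.5625 and 0.3075, and the rank correlation of distance with the partner's PSI was -0.206. Ribosomal protein genes held 7 of the 14 close events and 8 of the 12 distant ones. The rank correlation between distance and the partner's PSI was -0.29 over 25 events, with partners of several events counted more than once. Annotated introns of ribosomal protein genes had a median PSI of 0.065 over 91 introns in WT, and 6 of the 91 were at 0.5 or more. RPL30, RPS16A and RPS0B made up 3 of those 6, with means of 0.505, 0.83 and 0.775. These 3 were among 11 ribosomal protein introns with an alternative site, and RPS16B, the paralog of RPS16A, had 0.06 and 0.04. In -rap, 8 of 91 ribosomal protein introns were at 0.5 or more, and 2 of those 8 had an alternative site.

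RPS16A was the gene in which the order of the competing sites differed between libraries. In all 6 TruSeq libraries the alternative event had the higher PSI, for example 0.89 and 0.90 in WT beside 0.84 and 0.82 for the annotated intron. In -rap the alternative event had 0.67 and 0.70 beside 0.93 and 0.88. Its PSI was below that of the annotated intron in 12 of the 24 libraries with both values, and all 12 were Ribo-Zero libraries. The order also varied within that kit. The alternative event had 0.89 beside 0.72 in 7.5 h replicate 1 and 0.91 beside 0.88 in 12 h replicate 2. Both events had equal values in the dbr1 libraries, in sk1 replicate 1 and in 12 h replicate 1. The sk1 group had 0.78 and 0.69 beside 0.78 and 0.83, and +rap had 0.60 and 0.79 beside 0.95 and 0.83. RNA selection, culture and sequencer differ together between the kits and cannot be told apart. No other event had the lower PSI of its pair in more than 2 libraries.

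**Figure D2:**
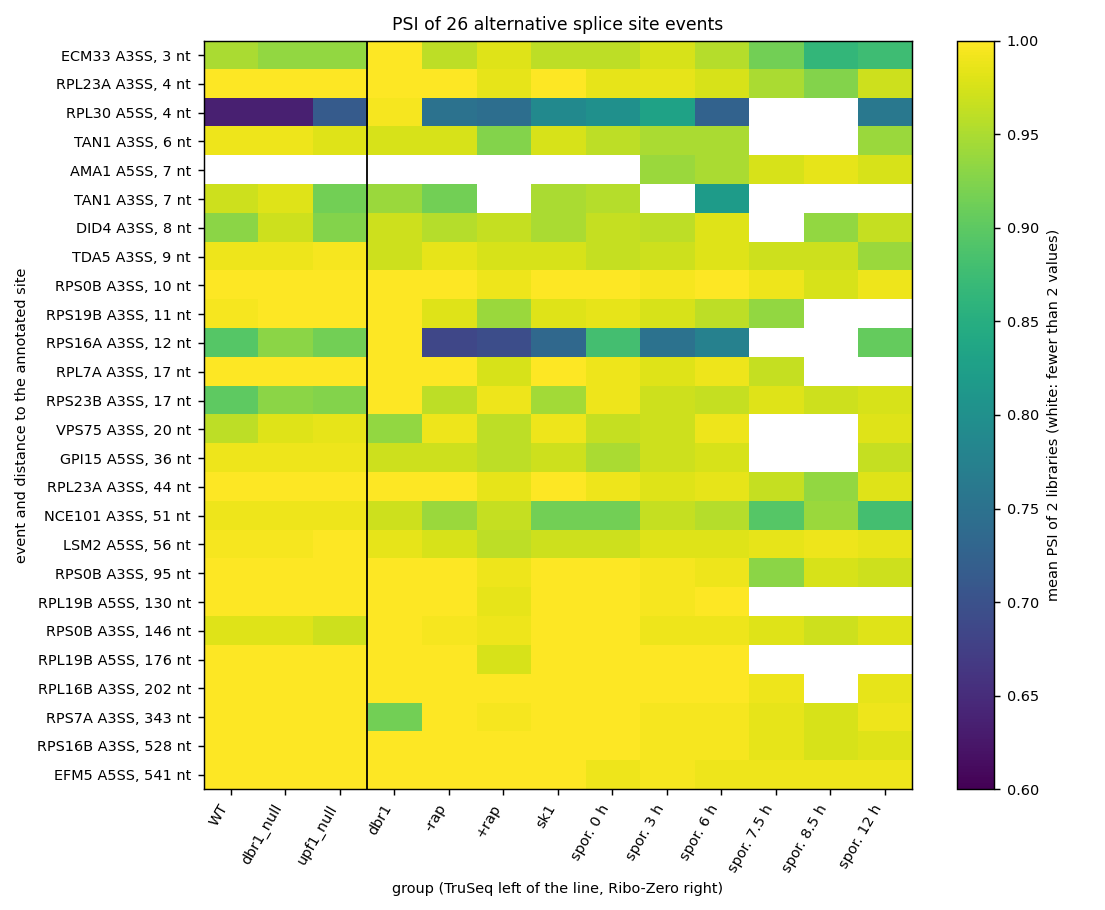
Mean PSI of each alternative event (rows, ordered by distance to the annotated site) in each group (columns, TruSeq left of the black line and Ribo-Zero right of it); white cells have fewer than 2 values. RPL30 and RPS16A are the darkest rows, in dbr1 both stand at 0.995 or 1, and RPS7A departs from 1 most in dbr1, at 0.915.

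Whether loss of Dbr1 changes these events was first asked in the TruSeq libraries. None of 25 events passed the test in dbr1_null against WT, against 2.65% of all 377 events tested (limma on log2((PSI + 0.01)/(1 − PSI + 0.01)), called log2 odds, at an adjusted p under 0.05 over all events). Without adjustment 2 of 25 had a p under 0.05, and the median difference was 0. The 3 largest differences were in DID4, 0.97 ± 0 against 0.93 ± 0.0141 (adjusted p = 0.105, limma), RPS16A, 0.035 (adjusted p = 0.425, limma), and RPS23B, 0.03 (adjusted p = 0.104, limma). RPS23B had 0.93 in both dbr1_null libraries and 0.90 in both WT libraries, so that the groups did not overlap. The share of all events without such overlap was not counted. In a fit of these 2 groups alone RPS23B passed the test (adjusted p = 0.0185, limma). That was 1 of 11 alternatives, and in the other 10 RPS23B stayed uncalled.

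In the Ribo-Zero libraries, 6 of 25 events differed between dbr1 and -rap, against 44.2% of all 319 events tested. Of the 6, PSI was higher in 4 and lower in 2. Over all events, 43.3% were called higher and 0.94% lower, and the 2 lower alternative events were among only 3 such calls in the table. The annotated partners had 12 of 20 called, all higher, with a median difference of 0.2975, while the median over the 25 alternative events was 0. Of these alternative events, 11 and 12 were at exactly 1 in the 2 -rap libraries and could not rise. Of 92 annotated introns of ribosomal protein genes, 89 were called higher, with a median difference of 0.87. Whether reads of unopened lariats enter PSI in dbr1 was not tested, so its values are given as PSI only.

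RPS7A, of the small ribosomal subunit, had a lower PSI in dbr1 at its distant site. Its alternative event had 0.93 and 0.90 in dbr1 and 1 in both -rap libraries, in all 6 TruSeq libraries and in both sk1 libraries, and its lowest value in any other group was 0.97, at 8.5 h. The change was -3.36 log2 odds (SE 0.43, adjusted p = 1.44e-05, limma). Its annotated intron had 0.99 in both dbr1 libraries and 0.07 in both -rap libraries (adjusted p = 3.09e-08, limma). The 2 dbr1 libraries were thus the only ones in which the alternative event of RPS7A, the 58 nt intron, had a lower PSI than the annotated one. VPS75 also fell, with 0.95 and 0.92 in dbr1 against 0.99 in both -rap libraries (-1.96 log2 odds, SE 0.36, adjusted p = 0.000684, limma). Its annotated intron had 0.78 and 0.66 in dbr1 against 0.51 and 0.59, and did not pass the test (adjusted p = 0.126, limma). The sk1 libraries also had 0.99 in both.

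The 4 events with higher PSI in dbr1 were close sites at a mean of 0.995 or 1, and their partners were called higher too. RPS16A rose from 0.67 and 0.70 in -rap to 1 in both dbr1 libraries (5.56 log2 odds, SE 0.61, adjusted p = 8.76e-06, limma), and its annotated intron from 0.93 and 0.88 to 1 and 1. RPL30 rose from 0.83 and 0.67 to 0.99 and 1 (4.54 log2 odds, SE 0.47, adjusted p = 5.96e-06, limma), and its annotated intron from 0.38 and 0.43 to 0.93 and 1. ECM33 rose from 0.97 and 0.95 to 1 in both (2.35 log2 odds, SE 0.48, adjusted p = 0.000924, limma) while its annotated intron went from 0.55 and 0.60 to 1 and 1. The ECM33 call was lost when PSI itself was fitted (adjusted p = 0.141, limma). RPS23B rose from 0.97 and 0.95 to 1 in both (2.35 log2 odds, SE 0.44, adjusted p = 0.000477, limma) while its annotated intron went from 0.08 and 0.11 to 0.88 and 0.87. In none of the 4 did the libraries of the groups overlap. The share of all events without such overlap was not counted, and 43.3% of all events tested were called higher in dbr1.

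Among the events that were not called, the largest differences were in NCE101, 0.97 in both dbr1 libraries against 0.95 and 0.93 (adjusted p = 0.218, limma), the 7 nt event of TAN1, 0.025 (adjusted p = 0.589, limma), and RPS19B, 1 in both against 0.99 and 0.97 (adjusted p = 0.0644, limma). The distant events of RPL19B, RPL16B, RPS16B and EFM5 were at 1 in both groups. Their annotated introns had means of 0.98, 0.97, 0.975 and 0.99 in dbr1, and the first 3 of these were at 0.035, 0.265 and 0.08 in -rap. EFM5 was at 0.97 there.

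**Figure D3:**
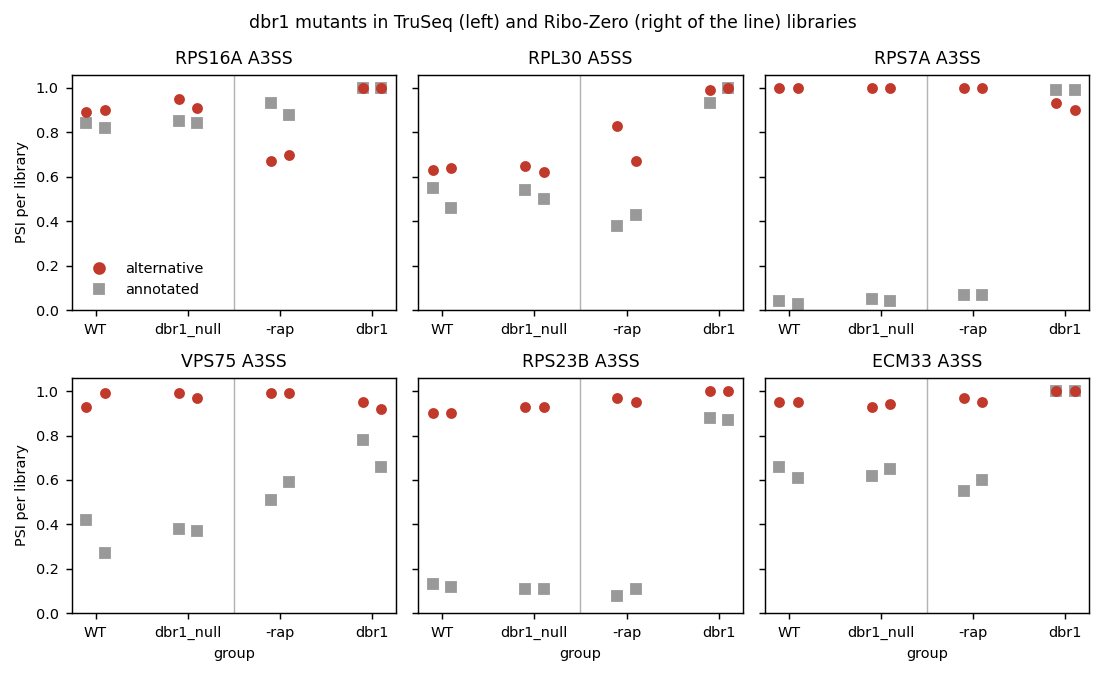
PSI in each library (vertical axis, fraction; circles alternative event, squares annotated intron) for the 6 events called in dbr1 against -rap, with the TruSeq groups left and the Ribo-Zero groups right of the grey line. RPS7A shows the alternative event at 0.93 and 0.90 in dbr1 below the annotated intron at 0.99, and RPS16A shows the alternative event below the annotated one in -rap.

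Loss of Upf1 was tested in the TruSeq libraries. PSI differed in 2 of 25 events between upf1_null and WT, against 12.8% of all 382 events tested, 11.8% higher and 1.05% lower. RPL30 rose from 0.63 and 0.64 to 0.72 and 0.71 (0.51 log2 odds, SE 0.08, adjusted p = 0.0469, limma). Its annotated intron had 0.58 and 0.59 against 0.55 and 0.46 (adjusted p = 0.285, limma). The RPL30 call was lost in 8 of 11 alternative settings, with adjusted p between 0.0456 and 0.185 in limma, and when any 1 of the 4 libraries was left out. The 6 nt event of TAN1 fell from 0.99 in both to 0.98 in both (adjusted p = 0.00148, limma), which is 1 step of the table's 2 decimals. Its replicates were equal to 2 decimals, so that this test rests on the spread limma borrows from other events.

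The other differences in upf1_null were not called. The 7 nt event of TAN1 had 0.95 and 0.88 against 0.98 and 0.96 (adjusted p = 0.252, limma), RPS23B 0.92 and 0.93 against 0.90 and 0.90 (adjusted p = 0.0521, limma), and VPS75 1 and 0.97 against 0.93 and 0.99 (adjusted p = 0.617, limma). The annotated TAN1 intron had 0.65 and 0.67 against 0.42 and 0.51 (adjusted p = 0.073, limma). Of the 18 tested events whose distance is not a multiple of 3, 5 had a higher PSI in upf1_null, 3 a lower one and 10 the same. Of the 7 with a multiple of 3, 2 were higher, 2 lower and 3 the same. This split is by distance alone and does not give the reading frame of every event. The RPS16B site, in the second set, lies 120 bases past the gene span. That of LSM2, in the first, lies 2 bases before the gene start.

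PSI differed in 8 of 24 events between +rap and -rap, against 21.2% of all 306 events tested. It was lower in 7 of the 8, and these made up 7 of the 10 lower calls in the table, where lower calls were 3.27% and higher calls 18.0% of events. All of the differences were small, at most 0.03. Of the 17 partners tested, 7 were called, all higher, with a median difference of 0.105. Most of the lower alternative events began at a PSI of 1 in -rap, which cannot rise. Their direction can therefore not be set against that of the partners or of all events. VPS75 had 0.97 and 0.95 in +rap against 0.99 in both -rap libraries (-1.34 log2 odds, SE 0.36, adjusted p = 0.0273, limma). RPL7A had 0.98 and 0.97 against 1 in both (-1.83 log2 odds, SE 0.39, adjusted p = 0.0141, limma), while its annotated intron had 0.70 and 0.86 against 0.26 and 0.30 (adjusted p = 0.00632, limma). RPS23B was the 1 higher event, with 0.99 in both against 0.97 and 0.95 (adjusted p = 0.048, limma).

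The other 5 lower events in +rap were all at 1 in both -rap libraries and belonged to 3 genes that each carry several events. The 176 nt event of RPL19B had 0.99 and 0.96 (adjusted p = 0.0186, limma) and its 130 nt event 0.99 and 0.98 (adjusted p = 0.0273, limma). The 4 and 44 nt events of RPL23A each had 0.99 and 0.98 (adjusted p = 0.0136 and 0.0245, limma). The 10 nt event of RPS0B had 0.99 in both (adjusted p = 0.0273, limma). The annotated introns of RPL19B and RPL23A had means of 0.205 and 0.20 in +rap against 0.035 and 0.065, and that of RPS0B 0.835 against 0.795.

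These calls depended on single libraries. None of the 8 remained when +rap replicate 2, -rap replicate 1 or -rap replicate 2 was left out, when the offset was 0.05 in place of 0.01, or when PSI itself was fitted. The calls over all events fell from 65 to 1, 5 and 11 without those libraries. Between 11 and 12 alternative events were at exactly 1 in the -rap libraries, against 4 and 3 in +rap. At 0.99 or more there were 15 and 13 of 25 in -rap, and 12 of 25 and 9 of 24 in +rap. The share of unannotated introns at 0.99 or more was 48.9% and 42.0% in -rap and 48.9% and 44.9% in +rap. The part of read depth in these differences was not tested. Of the events not called, the 6 nt event of TAN1 had 0.96 and 0.89 against 0.98 and 0.97 (adjusted p = 0.181, limma), RPS19B 0.95 and 0.93 against 0.99 and 0.97 (adjusted p = 0.146, limma), and NCE101 0.95 and 0.98 against 0.95 and 0.93 (adjusted p = 0.357, limma).

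The dbr1, +rap and sk1 comparisons share the -rap libraries. RPS23B differed by 0.04, 0.03 and -0.015 in them, and VPS75 by -0.055, -0.03 and 0. Between the strains, none of 25 events passed the limma test in sk1 against -rap, against 2.04% of all 294 events tested, and none had an unadjusted p under 0.05. The largest differences were in RPS16A, 0.05 (adjusted p = 0.893, limma), RPL30, 0.04 (adjusted p = 0.895, limma), and the 7 nt event of TAN1, 0.035 (adjusted p = 0.716, limma). Of the 25 events, 16 had the same mean PSI in both strains.

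In the SK1 sporulation course, the meiotic introns that need the splicing factor Mer1 were checked first. SPO22 had 0.36 and 0.33 at 3 h, 0.25 and 0.27 at 6 h, and 0.97 and 0.95 at 12 h, and REC107 went from 0.91 and 0.92 at 0 h to 0.71 and 0.73 at 3 h. AMA1, the 1 gene of these Mer1 targets with an alternative site, had no value at 0 h and in all S288c and sk1 libraries. From 3 h on, its annotated intron lay between 0.19 and 0.37 and its alternative event between 0.92 and 0.99, so that the annotated 5′ site was spliced more in all 10 libraries. One upf1_null library had the reverse order, with 0.93 for the alternative event and 0.95 for the annotated intron.

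PSI was lower at 12 h than at 0 h in 6 of 20 events and higher in none, against 27.0% of all 267 events called in either direction, 7.87% lower and 19.1% higher. Of the 17 partners tested, 5 were called, 4 of them higher. ECM33 fell most, from 0.98 and 0.94 at 0 h to 0.88 and 0.87 at 12 h (-1.69 log2 odds, SE 0.48, adjusted p = 0.0208, limma). Its annotated intron had 0.62 and 0.76 at 0 h and 0.74 and 0.83 at 12 h (adjusted p = 0.31, limma). The ECM33 call at 12 h was lost in 4 of 12 alternative settings, among them those without 12 h replicate 1, without 12 h replicate 2 and without 0 h replicate 1.

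The other 5 events were at 1 in both libraries at 0 h, so that their PSI could only fall or stay. For them, the direction of the calls cannot be set against the shares over all events. RPS0B fell to 0.98 and 0.96 at its 95 nt site (adjusted p = 0.0203, limma), to 0.98 in both at 146 nt (adjusted p = 0.00453, limma) and to 0.99 in both at 10 nt (adjusted p = 0.0177, limma). Its annotated intron rose over the same interval from 0.81 and 0.76 to 0.96 and 0.93 (adjusted p = 0.00327, limma). RPS16B fell to 0.98 in both (adjusted p = 0.00705, limma) and RPL16B to 0.99 and 0.98 (adjusted p = 0.00177, limma). Without 0 h replicate 1, 3 of the 6 calls remained. The share of unannotated introns at 0.99 or more was 40.7% and 39.3% at 0 h and 37.4% and 46.3% at 12 h. At the same cut stood 13 of 25 alternative events in each 0 h library, and 6 of 24 and 3 of 22 at 12 h. No alternative event was at exactly 1 at 12 h, against 8 in each 0 h library. The part of read depth in these falls was not tested.

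Events not called at 12 h against 0 h included RPL30, 0.76 in both against 0.79 and 0.81 (adjusted p = 0.638, limma), NCE101, 0.92 and 0.84 against 0.95 and 0.88 (adjusted p = 0.457, limma), and TDA5, 0.92 and 0.96 against 0.96 and 0.97 (adjusted p = 0.25, limma). The alternative event of RPS16A had 0.84 and 0.92 at 0 h, 0.85 and 0.65 at 3 h, 0.84 and 0.71 at 6 h and 0.90 and 0.91 at 12 h. Its annotated intron fell from 0.98 in both at 0 h to 0.90 and 0.88 at 12 h (adjusted p = 0.0354, limma).

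Over all 6 times, 8 of the 13 events with every value varied by limma's F-test, against 56.0% of all 159 events tested. ECM33 had the widest range of group means, 0.11 (adjusted p = 0.00649, limma). It had 0.98 and 0.97 at 3 h, 0.96 and 0.95 at 6 h, 0.88 and 0.95 at 7.5 h and 0.86 and 0.87 at 8.5 h. The 4 nt event of RPL23A went from 0.99 and 0.98 at 0 h to 0.93 and 0.92 at 8.5 h and 0.97 in both at 12 h (adjusted p = 0.00063, limma), and the 44 nt event from 0.99 in both to 0.95 and 0.92 and then 0.98 in both (adjusted p = 0.00414, limma). The calls on both RPL23A events were lost when the 7.5 and 8.5 h libraries were left out (adjusted p = 0.131 and 0.431, limma), an alternative chosen after seeing the data.

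The 3 RPS0B events also varied, with ranges of 0.025 at 10 nt (adjusted p = 0.000689, limma), 0.07 at 95 nt (adjusted p = 0.00964, limma) and 0.03 at 146 nt (adjusted p = 0.00351, limma). The 95 nt event had 0.98 and 0.88 at 7.5 h, where 1 library set the lowest mean. RPS16B and RPS7A each had a range of 0.025 (adjusted p = 0.00474 and 0.0256, limma). The RPS7A call was lost in 5 of 19 alternatives, with adjusted p up to 0.295 in limma, among them those without either 0 h library, without 8.5 h replicate 2 and without all 7.5 and 8.5 h libraries. NCE101 had a range of 0.085 and was not called (adjusted p = 0.0663, limma), and neither were TDA5 (adjusted p = 0.147, limma) and RPS23B (adjusted p = 0.255, limma). The 7.5 and 8.5 h libraries had values for the fewest events, 231 to 280, and no alternative event was at exactly 1 in them.

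**Figure D4:**
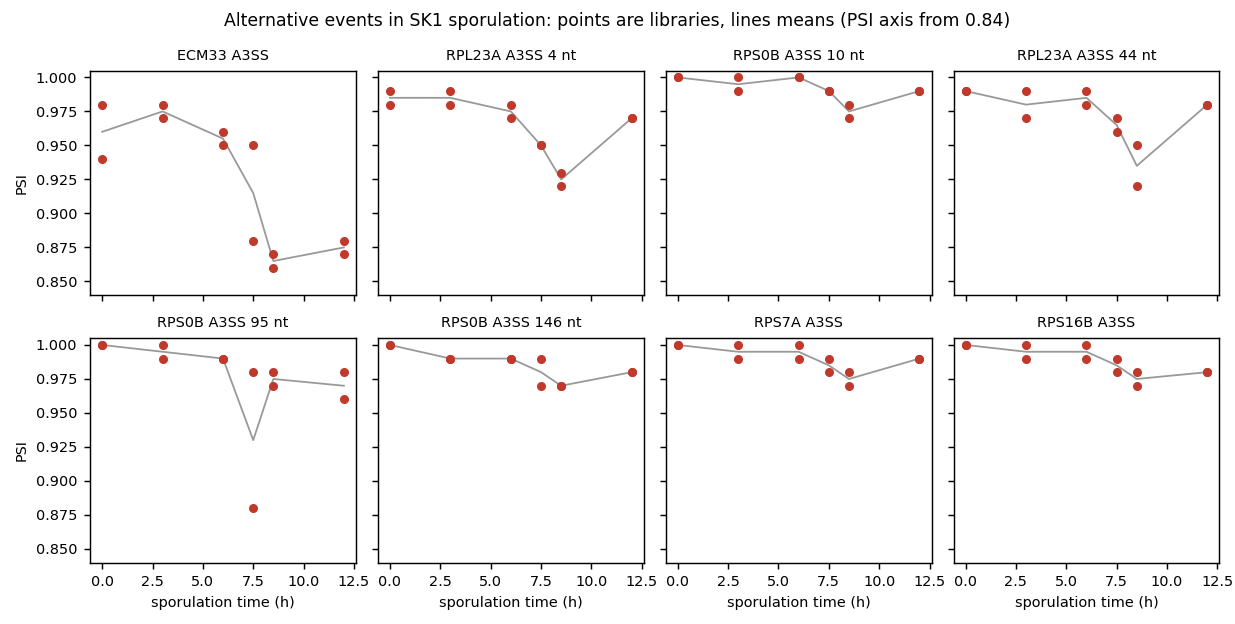
PSI of the 8 alternative events called by the F-test over sporulation (vertical axis, fraction, starting at 0.84) against the sporulation time in h; points are libraries and lines join the means of 2. ECM33 goes from 0.98 and 0.94 at 0 h to 0.88 and 0.87 at 12 h, and both RPL23A events have their lowest mean at 8.5 h.

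Over all comparisons, 17 of the 26 events in 13 genes were called at least once and 9 were not, 5 of them at most 20 nt from the annotated site. The same count over all 405 events was not made, and single comparisons called between 2.04% and 56.0% of all events tested. Of 22 calls outside the F-test, 14 were differences of 0.03 or less. Of a list of splicing factor genes, chosen as the machinery that selects splice sites, 11 events were in the table. In upf1_null 2 of the 10 tested were called, against 12.8% of all events. These were an unannotated intron each of LSM2 and NPL3, an RNA-binding protein, lower by 0.01 (adjusted p = 0.000407 for both, limma). That is 1 step of the 2 decimals. The SE of both, 0.0227 log2 odds, equals that of the 6 nt TAN1 event, so these tests also rest on the borrowed spread. In dbr1 an unannotated intron of PRP5, an RNA helicase of branch point recognition, was higher by 0.075 (adjusted p = 0.00307, limma). It was the 1 call among 7 tested, against 44.2% of all events. Other genes with alternative splicing described in yeast, by splice site or by intron retention, had 5 events. In dbr1 the annotated intron of RPL22B rose by 0.09 (adjusted p = 0.00521, limma) and 2 introns of GCR1, a transcriptional activator of glycolysis, by 0.015 each. These were 3 of 4 tested, against 44.2% of all events. In +rap the PSI of an annotated intron of PTC7, a phosphatase, fell by 0.36 (adjusted p = 0.0217, limma), the 1 call among 4 tested, against 21.2% of all events.

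Branch points were mapped in the same series from isolated lariat RNA, by Branch-seq in CPM, 1 pooled column without replicates, and by Lariat-seq in junction reads of 1 library. Branch-seq is on an older build and was matched by gene name only, so that a branch point could not be tied to an alternative site. Of the 21 genes, 14 had an annotated branch point and 5 an unannotated one, and 16 had either. The unannotated ones included LSM2 at 24.4 CPM, TDA5 at 7.97 CPM, RPL30 at 5.26 CPM and RPS7A at 4.97 CPM. EFM5 had 2 annotated branch points at 477 and 402 CPM, and which of them belongs to the intron paired here was not checked. Of 58 Lariat-seq sites, 2 used the annotated 5′ site of a pair, in LSM2 with 11 reads and in EFM5 with 10 reads, and none used an alternative 5′ site.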

How the data were processed

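The authors deposited PSI as a fraction per event and library, Branch-seq values in CPM, and Lariat-seq junction read counts. Per the submitters' processing notes, reads were processed with TopHat2 2.0.0, Bowtie 1.0.0, Cufflinks 2.2.1 and SAMtools 0.1.7a, with sacCer3 for RNA-seq and Lariat-seq and sacCer2 for Branch-seq. How PSI was computed, and at what depth, is not given in the sources used here.

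PSI was taken to log2((PSI + 0.01)/(1 − PSI + 0.01)). For each kit, a linear model with 1 mean per group was fitted to all events with limma 3.58.1 in R 4.3.3. Events with both values in both groups were tested, two-sided, with Benjamini-Hochberg adjustment over all of them and a threshold of 0.05. The script was tested on simulated data. Partners were found by shared splice site, and gene names and spans come from RefSeq assembly R64. Alternative sites were compared with the other events and with gene spans, not with annotated exons.

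The events and gene lists were chosen with earlier results of these data known. All 26 events are named. Those called are given with values, at most 10 per comparison, with up to 3 largest uncalled ones. The alternatives were the offset, the PSI scale, robust moderation, complete events, a minimum difference, a replicate block, fewer groups and each library left out.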

Additional observations from a re-analysis of the deposited data

Results flagged for a closer look

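The alternative 3′ site of ECM33, 3 nt before the annotated one, had differences of opposite sign in the 2 preparations of dbr1 mutants, of which 1 was called. PSI was higher by 0.04 in dbr1 than in -rap (adjusted p = 0.000924, limma, and 0.141 when PSI itself was fitted). The difference of dbr1_null from WT, 0.93 and 0.94 against 0.95 in both, was -0.015 and did not pass the test (adjusted p = 0.546, limma). That of upf1_null from the same WT libraries was also -0.015. Every library of dbr1 and dbr1_null lay on 1 side of its controls in each preparation. The difference between the preparations was not tested.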

How the results depend on the processing

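The number of alternative events called per comparison was recomputed under each alternative. For dbr1_null against WT, 0 became 1 with only the 2 groups fitted and 0 to 1 with a library left out. For upf1_null, 2 became 1 on the PSI scale, with robust moderation, with a minimum difference of 0.02 and with a replicate block, 3 with an offset of 0.05, and 1 to 2 with a library left out. For dbr1 against -rap, 6 became 3 over the 13 events with a value in every library, and 6 to 7 with a library left out. For +rap, 8 became 0 with an offset of 0.05, 0 on the PSI scale, 3 with values in every library, 4 with a minimum difference of 0.02 and 2 with only the 2 groups, and 0 to 6 with a library left out. For 12 h against 0 h, 6 became 2 on the PSI scale, 4 with an offset of 0.05, 4 with a minimum difference of 0.02, 5 with only the 2 groups (3 of them among the 6) and 3 to 6 with a library left out. For sk1 the count stayed at 0 in all alternatives run, and the F-test gave 7 to 10 with a library left out against 8, 6 on the PSI scale and 6, of which 5 were among the 8, without the 7.5 and 8.5 h libraries. The Spearman rank correlation between distance and PSI was 0.390 for A3SS alone and 0.523 to 0.553 with a WT library left out, against 0.561. Differences in uncalled events changed sign in 3 cases, all with a library left out. VPS75 in upf1_null ranged from -0.005 without WT replicate 1 to 0.055, RPL30 in sk1 from -0.04 without -rap replicate 2 to 0.12, and NCE101 at 12 h from -0.075 to 0.005 without 12 h replicate 2. The causes were not tested.

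Groups share replicate numbers, but the labels do not say that a number pairs samples, and each comparison has only 2 pairs. The correlation of deviations between same-numbered libraries ran from -0.383 in sk1 to 0.362 in +rap. With a replicate block, the 7 counts in the order dbr1_null, upf1_null, dbr1, +rap, sk1, 12 h and F-test were 0, 1, 6, 7, 0, 6 and 8, while the calls over all events fell from 10 to 2 in dbr1_null and from 49 to 11 in upf1_null. A crossed pairing, chosen after seeing the data and fitted to the 2 groups alone, gave 4 for dbr1 and 0 for sk1. Over all events, fitting only the 2 groups gave 11 calls for +rap against 65 and 32 for 12 h against 72. With 2 libraries a group and PSI rounded to steps of 0.01, differences near 1 rest on the spread shared across events.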
